A study of Homo sapiens with 10 samples.

Results

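VPR and SAM are competing ways to load a catalytically dead Cas9 with activation domains, and their effect on the transcriptome was compared here directly, library against library. The comparison takes the 2 libraries labelled VPR and the 2 labelled SAM, 4 of the 10 poly(A) RNA-seq libraries in the series. All 10 come from HEK293T, a human embryonic kidney cell line, transfected with a lipid reagent, and all carried a guide directed to the fetal globin gene HBG1. The other 6 libraries are 2 each of VP64, of Suntag and of a control labelled guide only. They share in the filter on low counts, the scaling and the estimate of the spread between replicates, and their levels are given only beside the VPR and SAM values. Whether the libraries of a group stem from separate cultures is not in the labels. The p-values below are set by the spread among these libraries, and that spread may be technical.

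Dead Cas9 binds the DNA that its guide matches without cutting it, and an activation domain carried to a promoter in this way can recruit the transcription machinery. In VPR the domains VP64, p65 and Rta are joined to the Cas9 protein in 1 chain. In SAM, Cas9 carries VP64 and the guide carries RNA hairpins, to which a separate protein with further activation domains binds. Both were built to give stronger activation than VP64 alone. The labels give neither the plasmid doses nor the time of harvest.

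The files list clusters of transcripts by number and do not pair them with gene names. Of the 82960 transcript identifiers, 6 could be matched by stem to a gene symbol in the RefSeq table of a later build, 1 of them with its version. HBG1 and the genes of any pathway could therefore not be located, the cell line could not be checked by its markers, and no sequence can be tied to a cluster. In what follows, at most 2 clusters higher and 2 lower in VPR are given by number, and others by their transcript length in nucleotides (nt). Levels are CPM, that is expected counts scaled to a common library total. A cluster is called where edgeR's quasi-likelihood test, fitted on all 10 libraries with 13241 tested clusters, gave a Benjamini-Hochberg adjusted p under 0.05.

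Library totals were 5049833 and 7447949 expected counts in VPR and 3434486 and 4435296 in SAM, so that VPR was the more deeply sequenced group. The tested clusters held 99.8% of the counts in each of these libraries. The chi-square between replicates, 2.68 per cluster in VPR and 2.28 in SAM, exceeded sampling noise, and they were counted as separate samples. This value cannot tell separate cultures from separate preparations of the same RNA. On principal components of log2 CPM of the 4 libraries, the first component held 51.0% of the variance. It placed VPR replicates 1 and 2 at -28.3 and -15.3, and SAM replicates 1 and 2 at 30.7 and 12.9. The replicates 1 of both groups thus lay farther apart than the replicates 2, and the second component, with 27.6%, set the SAM libraries apart from each other at -18.3 and 27.9.

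VPR and SAM differed in many clusters by a little and in few by much. Of all tested clusters, 5.68% were called, 752 in number, with 472 higher in VPR (3.56%) and 280 lower (2.11%). Most calls that were higher in VPR were small: 364 of the 472 were under 1.5-fold, the median log2 difference was 0.47, and 12 reached 2-fold (0.0906% of tested clusters). Calls that were lower in VPR were larger, with a median log2 difference of -0.60, 133 of the 280 under 1.5-fold and 65 at 2-fold or more (0.491%). The lower calls also stood at lower levels, with a median of 32.3 CPM against 99.6 CPM for the higher ones. At like levels the sizes were similar from 10 CPM up. Median log2 differences of higher and lower calls were 0.54 and -0.55 from 10 to under 100 CPM, and 0.41 and -0.39 at 100 CPM or more. From 1 to under 10 CPM they were 1.03 and -1.61. Over all tested clusters the median log2 difference was -0.0040. The balance of directions rests on the scaling between libraries. TMM factors, which assume that most clusters do not differ, were 0.962 and 0.973 in VPR and 1.05 and 1.03 in SAM. Scaled by library totals alone, the median of all clusters shifted to -0.106, and the calls became 916 (6.92%), of which 215 were higher and 701 lower in VPR.

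**Figure D1:**
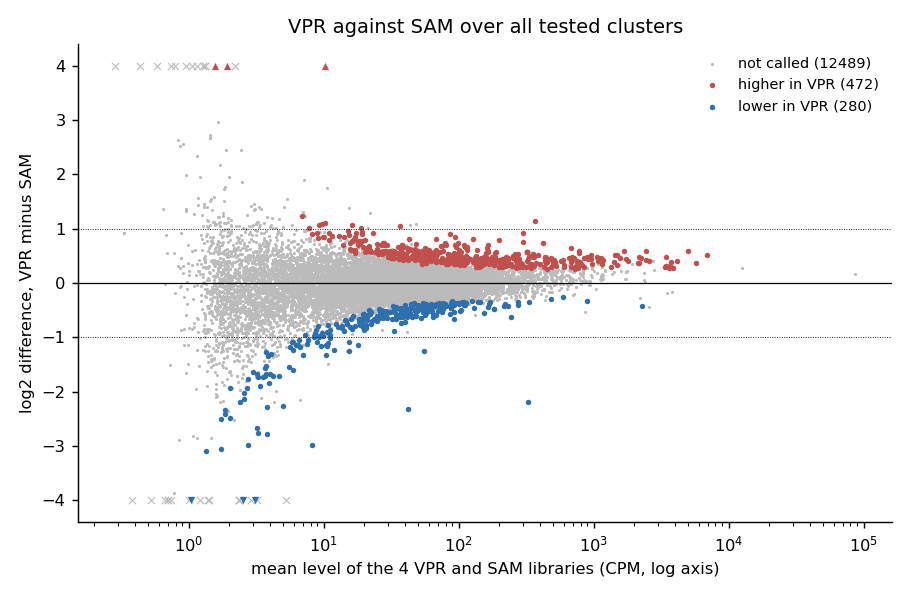
Mean level over the 4 VPR and SAM libraries (CPM, log axis) against the log2 difference of VPR minus SAM, 1 point per tested cluster, with red and blue points for the 472 clusters called higher and the 280 called lower in VPR. Triangles and crosses at the upper and lower edge stand for called and not called clusters beyond 4 log2 units, and dotted lines mark 2-fold. Large called differences lie mostly at low levels and on the lower side.

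Calls among abundant transcripts were mostly higher in VPR, and calls among rare ones mostly lower. Among the 1983 clusters at 100 CPM or more, 11.8% were called higher in VPR and 1.51% lower, with 1 of at least 2-fold on each side. At that level the share called higher fell with transcript length, from 47.2% under 700 nt to 2.9% from 3000 to under 9000 nt. In the latter class 2.67% were called lower, so the excess of higher calls lay in shorter transcripts. Among the 3410 clusters from 1 to under 10 CPM, 0.293% were called higher and 1.94% lower, and 53 of the 66 lower ones were at least 2-fold. Between these levels, from 10 to under 100 CPM, 2.93% of 7788 clusters were higher and 2.36% lower. The median SE of a log2 difference was 0.09 in the most abundant class and 0.38 in the class from 1 to under 10 CPM. Differences under 2-fold were therefore hardly detectable among rare transcripts at this depth.

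**Figure D2:**
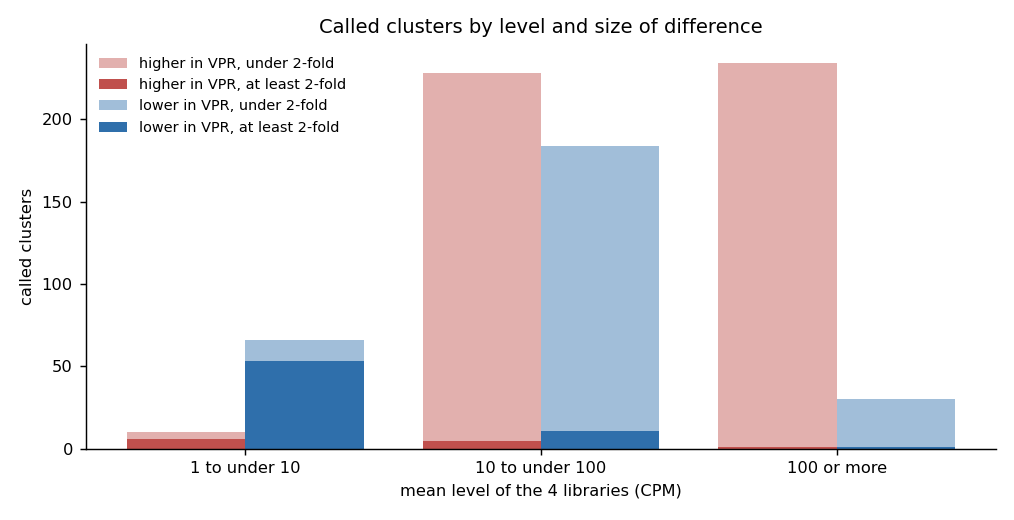
Number of called clusters (vertical axis) by mean level of the 4 libraries in CPM (horizontal axis), with red bars for clusters higher and blue bars for clusters lower in VPR, and the darker foot of each bar for those of at least 2-fold. At 100 CPM or more, 234 were higher and 30 lower, and from 1 to under 10 CPM 10 were higher and 66 lower.

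By share of the library, the 472 clusters higher in VPR held 18.2% and 17.3% of the counts in the VPR libraries, and 13.9% and 14.5% in SAM. The same clusters held 16.8% and 17.0% in VP64, 16.3% and 16.2% in Suntag, and 15.3% and 14.9% in the control, between the VPR and SAM values in all 6 libraries. The 280 clusters lower in VPR held 1.29% and 1.38% in VPR, and 2.09% and 1.99% in SAM. In the other 6 libraries they held from 1.44% to 1.63%, again between VPR and SAM. These sets were chosen for a gap between VPR and SAM, so other libraries can fall between them by that choice alone. The shares are a description in all libraries.

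In 7 clusters the difference between VPR and SAM was called with all libraries and also in each of the 10 fits that leave out 1 library. They were chosen after their values were seen. Of these, 2 were lower and 5 higher in VPR, and each was also called under every other processing alternative that tested it. They include the clusters with the 7 smallest adjusted p-values. Counts of all but the 831 nt cluster were not whole in at least 1 of the 4 libraries, as reads that fit several transcripts are divided, so these levels carry that uncertainty.

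The 831 nt cluster, of 4 transcripts, held 88 and 75 counts in VPR and 260 and 295 in SAM. Its levels were 17.4 and 10.1 CPM in VPR and 75.7 and 66.5 CPM in SAM, and the groups did not overlap. VPR was lower by a log2 difference of -2.31 ± 0.22 (SE, edgeR adjusted p = 0.000189). From summed counts, SAM exceeded VPR 5.41-fold (95% exact interval 4.53 to 6.48, for counting error only). Suntag had 18.5 and 13.1 CPM and overlapped with VPR. VP64 held no counts, which allows up to 0.346 CPM over the group, and the control held 0 and 0.494 CPM. VPR and Suntag thus lay between SAM and the groups with next to no counts. The fitted log2 difference was -1.91 without VPR replicate 2 and -2.71 without VPR replicate 1.

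The 2152 nt cluster, of 2 transcripts, gave the smallest adjusted p of the comparison. It stood at 116 and 107 CPM in VPR and at 598 and 495 CPM in SAM. The log2 difference was -2.19 ± 0.11 (SE, edgeR adjusted p = 4.36e-08). Unlike the 831 nt cluster, it had a similar level in VPR and in all libraries outside SAM, which ran from 101 CPM in VP64 to 140 CPM in Suntag. In TPM, which are adjusted for length, it stood at 609 and 490 in SAM, and the 831 nt cluster at 236 and 186. In VPR these values were 108 and 102 TPM for the 2152 nt cluster, and 49.7 and 29.9 TPM for the 831 nt cluster. At these levels per length, the 2152 nt cluster was the more abundant of both in each group.

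The 5 clusters that were higher in VPR were abundant and had smaller differences. A cluster of 1752 nt with 1 transcript differed most, at 498 and 492 CPM in VPR against 223 and 255 CPM in SAM. Its log2 difference was 1.15 ± 0.11 (SE, edgeR adjusted p = 8.99e-05), and it was the single cluster at 100 CPM or more that was called at least 2-fold higher in VPR. VP64, at 427 and 516 CPM, and the control, at 471 and 430 CPM, were near VPR, and Suntag lay between VPR and SAM at 296 and 349 CPM.

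A 3323 nt cluster of 1 transcript held 371 and 396 CPM in VPR and 211 and 225 CPM in SAM, with a log2 difference of 0.91 ± 0.10 (SE, edgeR adjusted p = 0.00038). Suntag was intermediate here as well, at 328 and 275 CPM, while VP64 stood at 429 and 444 CPM and the control at 400 and 361 CPM. So in both of these clusters SAM had the lowest level of the 5 groups and Suntag the next.

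A 1604 nt cluster of 4 transcripts stood at 128 and 108 CPM in VPR and at 68.1 and 72.1 CPM in SAM (log2 difference 0.84 ± 0.10, SE, edgeR adjusted p = 0.001). The 1970 nt cluster, of 5 transcripts, held 508 and 525 CPM in VPR and 335 and 332 CPM in SAM (log2 difference 0.73 ± 0.08, SE, edgeR adjusted p = 0.000213). A 2136 nt cluster of 1 transcript held 836 and 790 CPM in VPR and 534 and 582 CPM in SAM (log2 difference 0.64 ± 0.08, SE, edgeR adjusted p = 0.000688). In these 3 clusters, as in those of 1752 and 3323 nt, every one of the 8 libraries outside SAM lay above both SAM libraries. The other 6 libraries ran from 96.4 to 110 CPM for the 1604 nt cluster, from 512 to 596 CPM for the 1970 nt cluster and from 783 to 866 CPM for the 2136 nt cluster.

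**Figure D3:**
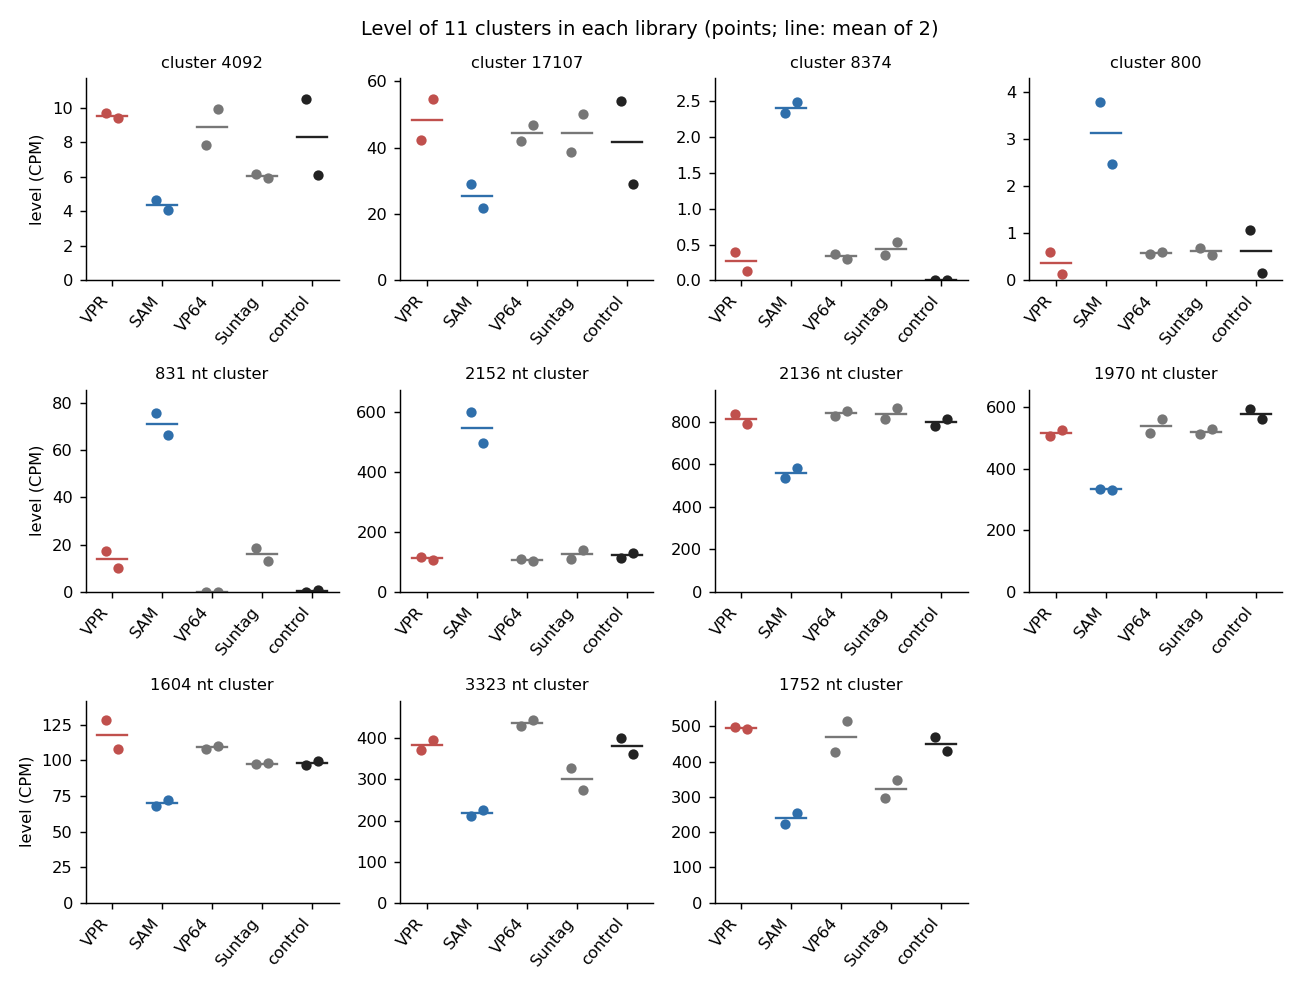
Level in CPM (vertical axes, each from 0) in each of the 10 libraries (points) with the mean of the 2 libraries of a group (lines), for 4 clusters named by rank and for the 7 clusters called in every fit without 1 library. In the 2152 nt cluster both SAM libraries lie at 495 CPM or more and all others at 140 CPM or less, while the 831 nt cluster also has counts in VPR and Suntag.

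The rule for naming clusters asks for whole counts in the 4 libraries, a mean of at least 1 CPM and groups that do not overlap, and ranks called clusters by the size of the fitted difference. Groups that do not overlap are common here: both VPR libraries lay above both SAM libraries in 27.5% of tested clusters, and below in 27%. The rule left 81 clusters higher and 106 lower in VPR, or 1.83% and 2.39% of the 4431 tested clusters with whole counts. These are all called clusters with whole counts, so the conditions on level and overlap removed none. The ranking leads mostly to low levels. At any level a call could end with 1 library left out, as only 7 of the 752 stood in every such fit.

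Cluster 4092, of 2303 nt, ranked first among those higher in VPR. It held 49 and 70 counts in VPR, or 9.70 and 9.40 CPM, and 16 and 18 counts in SAM, or 4.66 and 4.06 CPM. The log2 difference was 1.24 ± 0.30 (SE, edgeR adjusted p = 0.0287), and summed counts gave a ratio of 2.20 (95% exact interval 1.49 to 3.33). Cluster 17107, of 1674 nt, followed with 42.2 and 54.6 CPM in VPR and 29.1 and 21.9 CPM in SAM, a log2 difference of 1.06 ± 0.24 (SE, edgeR adjusted p = 0.0226). The control libraries, at 54.1 and 29.2 CPM, spanned most of the range of both groups for this cluster. Both calls ended in each fit without 1 VPR or SAM library. The adjusted p by edgeR was then 0.0717 to 0.155 for cluster 4092 and 0.0692 to 0.164 for cluster 17107.

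Ranks 3 to 10 on that side had log2 differences from 0.85 to 1.01 and transcript lengths from 911 to 4434 nt. A 2409 nt cluster among them, for example, stood at 20.2 and 18.9 CPM in VPR and 9.90 and 11.5 CPM in SAM. A 947 nt cluster with 12 transcripts held 18.6 and 20.1 CPM in VPR and 11.9 and 10.8 CPM in SAM. Of the 4431 tested clusters with whole counts, 3 were called at least 2-fold higher in VPR, against 12 of all 13241. The 3 are ranks 1 to 3 of this list.

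On the side lower in VPR, cluster 8374, of 1878 nt, ranked first with 2 and 1 counts in VPR and 8 and 11 counts in SAM. The levels were 0.396 and 0.134 CPM in VPR and 2.33 and 2.48 CPM in SAM. The ratio of SAM to VPR was 10.1, with a wide 95% exact interval of 2.96 to 53.1 (edgeR adjusted p = 0.0346). Both control libraries held no counts, which allows up to 0.28 CPM over the group. Cluster 800, of 3574 nt, held 3 and 1 counts in VPR and 13 and 11 in SAM, with a SAM to VPR ratio of 9.53 (95% exact interval 3.27 to 37.8, edgeR adjusted p = 0.0346). Each of these calls ended in 6 fits without 1 library, namely each VPR, SAM or VP64 library, with edgeR adjusted p from 0.0604 to 0.231.

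Ranks 3 to 10 on the lower side held from 7 to 163 summed counts in VPR and from 25 to 555 in SAM, and the 831 nt cluster was rank 7. Among the others, a 3516 nt cluster of 1 transcript held 5 and 6 counts in VPR and 24 and 28 in SAM (log2 difference -2.77 ± 0.46, SE, edgeR adjusted p = 0.00614). A 4516 nt cluster held 11 and 9 counts in VPR and 25 and 42 in SAM (log2 difference -2.26 ± 0.37, SE, edgeR adjusted p = 0.00564). For the 4516 nt cluster the 6 libraries outside the comparison stood at 2.87 to 3.32 CPM, nearer to the VPR libraries at 2.18 and 1.21 CPM than to SAM at 7.28 and 9.47 CPM. Leaving out either SAM library ended its call, with an edgeR adjusted p of 0.0555 for replicate 1 and 0.0599 for replicate 2. The call of the 3516 nt cluster ended without VPR replicate 1 or SAM replicate 1 (edgeR adjusted p = 0.0624 and 0.0852).

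Clusters whose counts are not whole hold the largest fitted differences. On the higher side, 3 clusters had no or next to no counts in SAM. A 2179 nt cluster held 48.1 summed counts in VPR and 0 in SAM. The next cluster in the list held 20.9 in VPR and 57 in SAM, and added together the 2 clusters came to whole numbers, within 0.02, in every library. Summed, the pair stood at 5.59 ± 0.50 CPM in VPR and 7.21 ± 0.32 CPM in SAM (SD, n = 2 each). The ratio of VPR to SAM was 0.762 (95% exact interval 0.529 to 1.10), so no higher level in VPR was detectable for the pair.

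A 1296 nt cluster of the same kind held 179 summed counts in VPR and 55.5 in SAM, and its neighbour of the same length 49.0 and 55.5. Their sum had a ratio of 1.29 (95% exact interval 1.03 to 1.64), against 2.01 for the cluster by itself. A 1047 nt cluster, first among the higher ones, held 185 and 30.4 counts in the VPR libraries and next to none in SAM, and no single partner was found for it. On the lower side, clusters of 6806, 2525 and 858 nt were at 0 in both VPR libraries, and none had a single partner. Such pairs were few: of 470 called clusters with counts not whole in at least 3 libraries, 20 had exactly 1 partner and 445 had none. With pairs merged, 741 clusters were called. Among called clusters of at least 2-fold, 9 of the 12 higher and 29 of the 65 lower in VPR had counts that are not whole, as did 8810 of all 13241 tested clusters.

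Clusters higher and lower in VPR differed in transcript length. Under 700 nt, 34 of 247 tested clusters (13.8%) were higher in VPR by the same call and 1 (0.405%) was lower, and from 700 to under 1500 nt these shares were 9.42% and 0.4%. From 3000 to under 9000 nt, 1.32% were higher and 3.17% lower, and of the 299 clusters of 9000 nt or more 0.334% were higher and 10.7% lower. The median log2 difference fell over the 5 classes from 0.27 under 700 nt, through 0.17, 0.06 and -0.10, to -0.20 at 9000 nt or more. The shares also varied with level. Of clusters under 700 nt, 25 of 53 (47.2%) were called higher in VPR at 100 CPM or more, 9 of 120 (7.5%) from 10 to under 100 CPM, and 0 of 74 from 1 to under 10 CPM. Of clusters of 9000 nt or more, 3 of 32 (9.38%) were called lower at 100 CPM or more, 28 of 217 (12.9%) from 10 to under 100 CPM, and 1 of 50 (2%) from 1 to under 10 CPM. From 1 to under 10 CPM the calls thus showed no such contrast between the shortest and the longest class, and few differences were detectable there.

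The lean towards short or long transcripts was graded between libraries. It was measured as the median deviation from the mean of the 4 libraries of clusters under 700 nt, less that of clusters of 3000 nt or more, on the log2 CPM scale. The values were 0.26 and 0.11 in VPR replicates 1 and 2, and -0.29 and -0.09 in SAM replicates 1 and 2. As a mean this was 0.19 ± 0.11 in VPR and -0.19 ± 0.14 in SAM (SD, n = 2 each), and the groups did not overlap. Deviations from a shared mean make the 2 groups near mirror images, so this is 1 relative difference between VPR and SAM. With 2 libraries against 2, a two-sided exact permutation test cannot give a p below 0.333, so no test is made. Transcript and effective lengths gave a mean fragment length of 111 and 113 nt in VPR, and of 116 and 97.5 nt in SAM. The SAM library with the longer fragments, replicate 1, had the stronger lean to long transcripts, and the part of fragment length in these values was not tested.

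**Figure D4:**
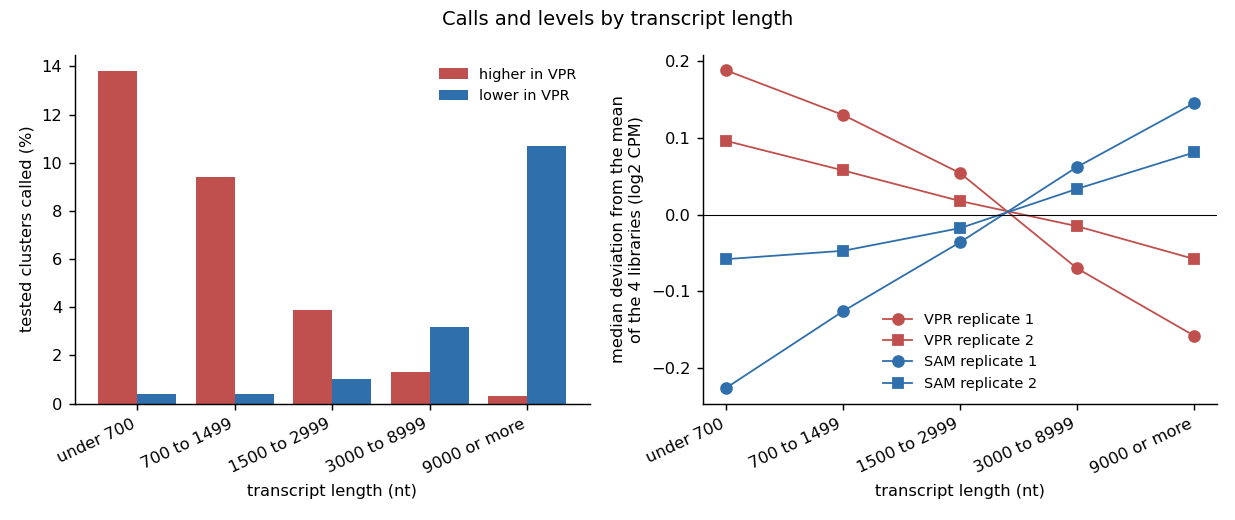
Left, the percentage of tested clusters called higher (red) or lower (blue) in VPR by transcript length in nt. Right, the median deviation of each of the 4 libraries from their mean (log2 CPM) in the same length classes. VPR replicate 1 and SAM replicate 1 lie farthest apart, at 0.19 and -0.23 under 700 nt and at -0.16 and 0.15 at 9000 nt or more.

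With each library's trend on transcript length removed, 295 clusters were called (2.23%), 189 higher and 106 lower in VPR, and 254 of them were among the 752. Median transcript lengths of these calls were 3105 nt for the higher and 2663 nt for the lower ones, against 1714 nt and 4804 nt before. Calls of at least 2-fold were then 6 higher and 44 lower. The 7 clusters described above were among the 295. Of the clusters given by number, cluster 8374 kept its call (edgeR adjusted p = 0.0471). Clusters 4092, 17107 and 800 lost theirs (edgeR adjusted p = 0.0516, 0.0593 and 0.0589), with log2 differences of 1.18, 0.95 and -3.01. The call of cluster 8374 ended without a filter on low counts (edgeR adjusted p = 0.05002).

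The number of calls depended on single libraries of the compared groups. Without SAM replicate 1 there were 9 calls (0.0664%), of which 7 were among the 752, and without VPR replicate 1 there were 34 (0.249%). Leaving out SAM replicate 2 left 142 (1.05%), and leaving out VPR replicate 2 left 511 (3.76%). In each group the library farther out on the first component, replicate 1, was the one whose removal cost more calls. Without Suntag replicate 1 or 2 there were more calls, at 1186 (8.74%) and 1180 (8.69%), and without VP64 replicate 1 or 2 fewer, at 483 (3.56%) and 484 (3.55%). Without control replicate 1 or 2 there were 631 (4.63%) and 637 (4.69%). These groups enter the comparison through the shared estimate of the spread, and also through the filter on low counts and the scaling. With the 4 VPR and SAM libraries alone 1037 clusters were called (8.17%). With the replicate number as a block, 623 were called (4.71%).

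**Figure D5:**
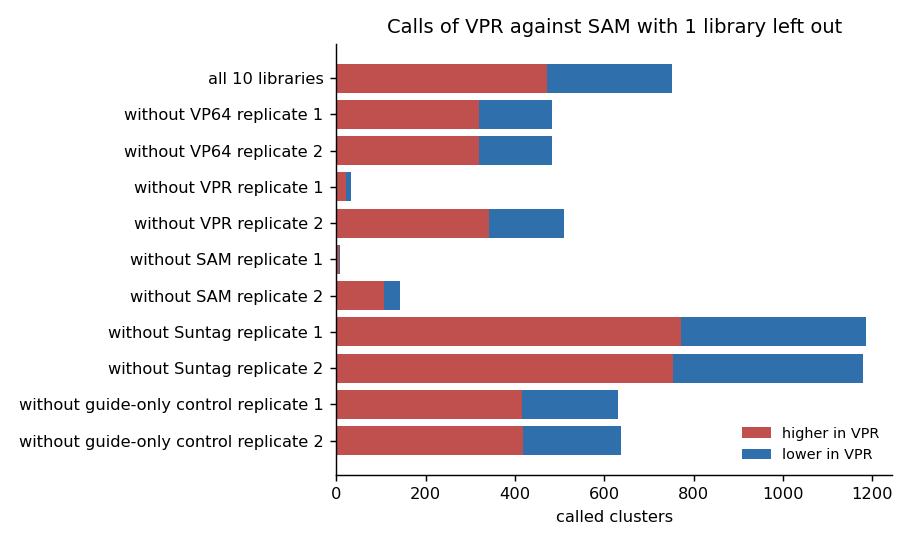
Number of clusters called higher (red) and lower (blue) in VPR than in SAM, in the fit of all 10 libraries (752 calls) and in each fit with 1 library left out (rows). The count falls to 9 without SAM replicate 1 and to 34 without VPR replicate 1.

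Levels in the 3 other groups were set beside those of VPR and SAM for the called clusters. For each cluster a group was counted as nearer to VPR where its mean log2 CPM lay on the VPR side of the midpoint between VPR and SAM. Of the 65 clusters at least 2-fold lower in VPR, VP64 was nearer to VPR in 52, Suntag in 50 and the control in 49, and all 3 were in 42 (64.6%). All 3 were nearer to SAM in 7. Over all tested clusters these shares were 28.1% with all 3 nearer to VPR and 16.5% with all 3 nearer to SAM. This is not a like background, as 90.7% of all tested clusters differed by under 1.5-fold between VPR and SAM. In the full sets of calls the lean was weaker. All 3 were nearer to VPR in 45% of the 280 lower clusters and in 37.7% of the 472 higher ones, and nearer to SAM in 11.8% and 4.45%. Of the 12 clusters at least 2-fold higher in VPR, 5 had all 3 nearer to VPR and 1 had all 3 nearer to SAM.

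For the 472 clusters higher in VPR the groups differed more. VP64 was nearer to VPR in 424 (89.8%), Suntag in 313 (66.3%) and the control in 218 (46.2%), where over all tested clusters the shares were 62.1%, 55.9% and 50.2%. Of the 280 lower clusters, VP64 was nearer to VPR in 76.8%, Suntag in 68.6% and the control in 57.1%. Since the called clusters were chosen for a gap between VPR and SAM, these counts are a description, and no test of them is made. The shares over all tested clusters, most of which have a small gap, are not a like background here either.

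Among tested clusters 2 could be matched to a symbol, both by identifiers whose version differs, so these names are uncertain. SLC9A3-AS1, alone in its cluster, is a non-coding RNA named as antisense to SLC9A3, which encodes a sodium/hydrogen exchanger, and in these libraries reads of a gene and its antisense partner cannot be told apart. It held 32 and 45 counts in VPR and 13 and 23 in SAM, or 6.34 and 6.04 CPM against 3.79 and 5.19 CPM. The groups did not overlap, but the log2 difference of 0.54 ± 0.33 (SE) did not pass edgeR's test (adjusted p = 0.358). The other match, IL12B-AS1, shares its cluster with another transcript, so the values are those of both. This cluster stood at 40.4 and 44.4 CPM in VPR and 54.2 and 58.1 CPM in SAM, on the opposite side, and its log2 difference of -0.30 ± 0.10 (SE) did not pass edgeR's test either (adjusted p = 0.101). ACTA2-AS1, an RNA antisense to the smooth muscle actin gene and the single match that includes the version, was listed at 0 in all 10 libraries.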

How the data were processed

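The authors deposited 1 table per library, made with RSEM 1.2.1 and the hg19 build per the submitters' processing notes. The transcript annotation, not given in the sources used here, defines the clusters. Columns are, per the file headers and for 31848 clusters, an expected count (RSEM's estimated count, which need not be whole), a transcript length and an effective length. The deposited TPM values are scaled by the authors within a library, and the deposited FPKM column was not used. Per the labels' protocols, cDNA was primed with random hexamers and made into libraries by tagmentation, which does not mark the strand.

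Expected counts were rounded and tested with edgeR 4.0.16 in R 4.3.3 (filterByExpr, TMM factors, quasi-likelihood F test, 1 coefficient per group, 5 residual degrees of freedom, Benjamini-Hochberg adjustment over 13241 clusters). SE is the log2 difference divided by the square root of F. Values of log2 CPM used a prior count of 2. A count was taken as whole within 0.01 in the 4 libraries, and a pair of clusters as sharing reads where their sums came within 0.03 of whole numbers in every library. Transcript length is the median over the libraries. Clusters are named by the rule in the text, 2 in each direction. The test was checked on simulated data. Members, classes and rules were chosen with earlier results of these data known.

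Alternatives were RLE factors, DESeq2 1.42.0, no filter, a mean of at least 10 CPM, the 4 libraries alone, leaving out each library, a block for the replicate number, removal of the trend on length (lowess, span 0.3), an effective-length offset, and clusters with whole counts only. Scaling by totals and the merging of 158 pairs were added after seeing the data. Intervals are exact binomial (Clopper-Pearson) for a ratio of summed counts, and they and the floor of 3 counts per group cover counting error only.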

Additional observations from a re-analysis of the deposited data

How the results depend on the processing

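The number of called clusters was 752, or 5.68% of those tested. It lay between 623 (4.71%) and 1037 (8.17%) with RLE factors, the 4 libraries alone, the replicate block, merged pairs and totals alone. At a mean of at least 10 CPM it was 898 (9.19%), and with the effective-length offset 594 (4.49%). It was 417 by DESeq2, or 8.74% of the 4770 clusters given an adjusted p (342 higher, 75 lower, with 1 and 2 of at least 2-fold). Without a filter on low counts it was 1444, or 7.23% of 19963 (975 and 469, with 66 and 145). Among clusters with whole counts in all 10 libraries it was 196, or 7.42% of 2642 (94 and 102). Both shares are above 5.68%, but they are taken over other sets of clusters. The main fit called 472 of the 4770 and 103 of the 2642. On like clusters DESeq2 thus called fewer than the main fit, and the fit with whole counts called more. With the length trend removed it was 295, or 2.23% (189 and 106, 6 at least 2-fold higher). Scaling by totals alone gave 215 higher and 701 lower, with 5 and 103 of at least 2-fold. The effective-length offset gave 181 lower and 42 at least 2-fold lower. Counts of at least 2-fold were 7 higher and 12 lower at a mean of at least 10 CPM, and 27 and 106 in the 4 libraries alone. Apart from what fewer tested clusters set, the cause was not tested.

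Leaving out 1 library in turn, calls ran from 9 to 1186, higher ones from 6 to 771, lower ones from 3 to 425, those at least 2-fold higher from 2 to 21 and those at least 2-fold lower from 2 to 83. Where a compared group is left with 1 library, that library is assumed to vary like the others. The difference in median between clusters under 700 nt and those of 3000 nt or more was 0.38. It ran from 0.28 to 0.50 in these fits, and was 0.16 without a filter. With the length trend removed it was 0.020, a value that the removal itself brings about. The replicate block gave 623 calls (390 higher, 233 lower). The labels do not say that numbers pair the libraries, and the correlation of deviations of same-numbered libraries was -0.067 between VPR and SAM and from -0.067 to 0.062 over the 10 pairs of groups.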

Other observations

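Calls also varied with the number of transcripts in a cluster. Of 2631 tested clusters with 1 transcript, 4.48% were called higher in VPR and 1.9% lower. Of 3802 clusters with 5 or more transcripts, 2.84% were called higher and 2.87% lower. The median log2 difference was 0.03 in the former and -0.02 in the latter, and how far transcript length goes with this was not tested.

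By absolute level, the largest called differences were in very abundant transcripts. A 943 nt cluster held 8235 and 7448 CPM in VPR and 5815 and 6033 CPM in SAM (log2 difference 0.51 ± 0.07, SE, edgeR adjusted p = 0.00271). A 1383 nt cluster held 5796 and 5804 CPM in VPR and 3972 and 4287 CPM in SAM (log2 difference 0.59 ± 0.08, SE, edgeR adjusted p = 0.00218). Both calls ended without SAM replicate 1, at edgeR adjusted p = 0.0555. In the other direction, a 2139 nt cluster held 1811 and 1940 CPM in VPR and 2718 and 2693 CPM in SAM (log2 difference -0.43 ± 0.10, SE, edgeR adjusted p = 0.0246). Its call ended in each fit without 1 VPR or SAM library, at edgeR adjusted p from 0.0615 to 0.188. These clusters were chosen after their values were seen, and their counts are not whole.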
